A study of Rattus norvegicus with 8 samples.

Results

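The normal difference between the forebrain and the hindbrain part of the head was measured in wild-type rat embryos at E12.5, from the 2 arrays titled as wild-type forebrain and the 2 titled as wild-type hindbrain. These are 4 of the 8 arrays of the series. The other 4 arrays hold the same parts of Pax6 homozygous embryos of the same age, 2 of forebrain and 2 of hindbrain, and the labels do not name the allele. The head was taken off at the level of the upper forelimb and divided at the isthmus, the border between midbrain and hindbrain. Midbrain, eye and nose primordia thus went with the forebrain part and the pharyngeal arches with the hindbrain part, which may include neck tissue in front of the cut. How many embryos went into each RNA preparation is not given in the sources used here.

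The forebrain of a mammalian embryo is laid out by homeobox transcription factors such as Lhx2, which acts in the cortical and eye field, and Nkx2-1, which acts in the ventral forebrain and the hypothalamus. The hindbrain and the tissues beside it carry the Hox code, in which nested Hox genes give each segment its identity, and the forebrain and midbrain express no Hox genes. Neurons of the brainstem and the cranial ganglia are born early, while much of the forebrain is still made of dividing progenitors. The mesenchyme of the face comes largely from neural crest, and the mesoderm of the pharyngeal arches gives rise to muscles of the head and neck.

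RNA was hybridised to Affymetrix rat U34A arrays, and each probe set of each array has 1 intensity in the authors' deposited table. A probe set is a group of short oligonucleotides meant to read 1 transcript, though some can also read related transcripts. The intensity rises with the amount of the transcripts read. Of 8740 probe sets that are not array controls, 5881 were bright enough on at least 2 of the 8 arrays to be tested. Replicate arrays correlated with r from 0.899 to 0.947 across probe sets, and the number of arrays limits the precision of every value. Whether replicate arrays stand for separate litters is not stated, so p-values measure a spread that may be technical. Between 18.3% and 22.3% of the values of an array were negative, so each array was given a noise level, the size of its 5th percentile (243 to 619.8 over the 8 arrays). Pax6 itself, the transcription factor altered in the other embryos and known from eye, forebrain and hindbrain progenitors, was read by 1 probe set (S74393_s_at). Its intensity was 1197 and 636 in wild-type forebrain and 827 and 531 in wild-type hindbrain. The values of the regions overlapped, and the log2 difference was 0.40 ± 0.42 (SE, adjusted p = 0.999).

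Between wild-type forebrain and hindbrain, 46 of 5881 probe sets (0.782%) passed limma's test at an adjusted p of 0.05. Of these, 12 (0.204%) were higher in forebrain and 34 (0.578%) were higher in hindbrain, and the smallest difference called was 1.15 on the log2 scale. All differences are log2 values, forebrain minus hindbrain, of intensities floored at 45.9, given with limma's standard error. The 12 probe sets higher in forebrain read 9 named genes, and the 34 higher in hindbrain read 20. The median difference over all tested probe sets was 0.00. The spread behind these tests was estimated from all 8 arrays. With the 4 wild-type arrays alone, 21 probe sets passed, 5 higher in forebrain and 16 higher in hindbrain, and 20 of these were among the 46. In that fit Nkx2-1, Ptprz1, Igfbp2, Wfdc1 and Sfpq lost every forebrain call, with limma's adjusted p from 0.0728 to 0.223. Tnnc2, Myh3, Neurod2, Ecel1, Nppc, Prph, Sst, Igfbp3, Dpysl4 and Ngfr lost every hindbrain call, with adjusted p from 0.0522 to 0.269. Leaving out wild-type hindbrain replicate 1 gave 23 calls, 9 higher in forebrain and 14 in hindbrain. Leaving out wild-type hindbrain replicate 2 gave 32, with 18 and 14. Without wild-type forebrain replicate 2 the calls higher in forebrain fell from 12 to 7. Without Pax6 homozygous hindbrain replicate 2 those higher in hindbrain fell from 34 to 22. In a bulk dissection, fewer cells of a type and less RNA per cell cannot be told apart.

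**Figure D1:**
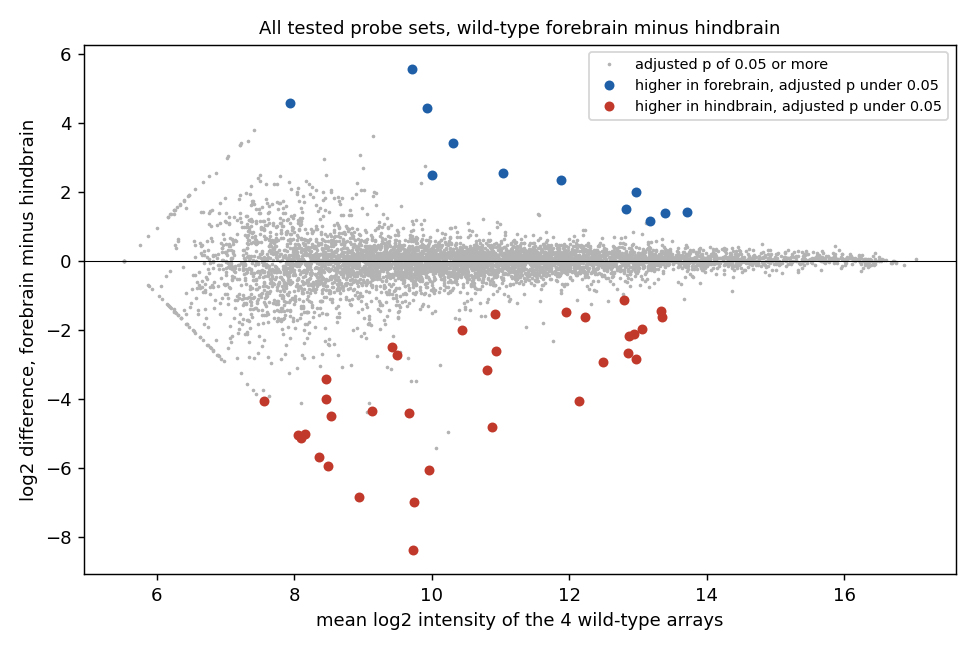
Log2 difference between wild-type forebrain and hindbrain (vertical axis) against the mean log2 intensity of the 4 wild-type arrays (horizontal axis), 1 point per tested probe set, 5881 in all. Blue points are the 12 probe sets called higher in forebrain, red points the 34 called higher in hindbrain and grey points the rest. The red points reach -8.40 and the blue points 5.57, and the diagonal edges of the grey points at low intensity are probe sets whose dimmer group lies at the floor.

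The genes higher in the forebrain part were led by Alx1, a homeobox gene of the mesenchyme around the eye and nose, followed by transcription factors of the forebrain itself. Alx1 (L14018_at) had an intensity of 4692 and 7155 on the forebrain arrays and 116 and 128 on the hindbrain arrays. Both hindbrain arrays were below their noise level, so the level there has only an upper bound. The difference was 5.57 ± 0.37 (adjusted p = 0.0004, limma), at least 14.1-fold in the forebrain's favour. In the list of head mesenchyme and pharyngeal arch genes, Alx1 was the 1 of 13 tested genes that passed (0.782% of all tested probe sets did). Meox2, a homeobox gene of mesoderm and its derivatives, lay the other way at 56.3 and 9.20 in forebrain and 638 and 945 in hindbrain (-3.93 ± 0.75, adjusted p = 0.0699). Twist2, a basic helix-loop-helix factor of mesenchyme, was at 324 and 416 and at 889.5 and 1050 (-1.40, adjusted p = 0.523). Prrx1, a homeobox gene of craniofacial and limb mesenchyme, was at 2494 and 1618 in forebrain and 3011 and 2781 in hindbrain (-0.53, adjusted p = 0.999). The arrays of Alx1 and of these 3 genes did not overlap between regions, with Alx1 alone of the 4 higher in forebrain. Over all 13 genes, the arrays did not overlap for 2 higher in forebrain and 4 higher in hindbrain. Among all tested probe sets these shares were 12.8% and 13.9%. The median of the 13 genes was -0.20, against 0.01 over all 3553 genes tested.

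Nkx2-1 and Lhx2 were both higher in the forebrain part. Nkx2-1 (X53858_at) was at 4011 and 4276 in forebrain and 658 and 228 in hindbrain. The hindbrain arrays differed from each other more than the forebrain arrays did, but both stayed far below them. The difference was 3.42 ± 0.46 (adjusted p = 0.0101), 10.7-fold. Hindbrain replicate 2 was below its noise level of 270.9, so the size of this fold is uncertain. Lhx2 (L06804_at) was at 8692 and 8273 in forebrain and 1519 and 1801 in hindbrain, and all 4 arrays were above noise. Its difference was 2.36 ± 0.20 (adjusted p = 0.000692), 5.13-fold, and it kept its call in 17 of 17 alternative settings, as Alx1 did. Nkx2-1 (0.0615 to 0.0705) lost the call when either wild-type forebrain array was left out, with adjusted p in parentheses.

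Of 40 forebrain patterning genes listed, 14 were on the array and 12 were tested. Lhx2 and Nkx2-1 passed as higher in forebrain and Neurod2 as higher in hindbrain, against 0.204% and 0.578% of all tested probe sets. The median of the 12 was -0.04, with 6 positive and 6 negative differences. Dlx5, a homeobox gene of the ventral forebrain, the olfactory placode and the arches, was at 1053 and 995 in forebrain and 226 and 268 in hindbrain, with no overlap (2.06 ± 0.42, adjusted p = 0.0994). Isl1, a LIM homeobox gene of the ventral forebrain that also marks motor and sensory neurons, lay the other way at 107 and 635 and 3096 and 2807 (-3.50 ± 0.70, adjusted p = 0.0904). The POU factors Pou3f4 (-1.31) and Pou3f2 (-0.83) were dimmer on both forebrain arrays than on both hindbrain arrays without passing the test. Pou3f3 (0.08) and Pou3f1 (0.09) overlapped between regions. So did the orphan nuclear receptors Nr2f1 (-0.16) and Nr2f2 (-0.19). Otx1, a homeobox gene of forebrain and midbrain, was at -86.7 and 349 in forebrain and negative on both hindbrain arrays, with no array above its noise level, so its difference of 1.46 has no usable size.

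Neurod2, a basic helix-loop-helix factor known from differentiating neurons of cortex and other regions, was read at -81.6 and 3.20 in forebrain and 1030.2 and 585 in hindbrain (D82868_at). The forebrain arrays were below noise and the hindbrain arrays were above it. The difference was -4.08 ± 0.64 (adjusted p = 0.023), which is at least 1.76-fold in the hindbrain's favour. The call held in 6 of 17 alternative settings. Neurod2 (0.0691 to 0.2) lost the call when any 1 of the 8 arrays other than both Pax6 homozygous forebrain arrays was left out, with adjusted p in parentheses.

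No member of the midbrain and isthmus list passed, and 6 of its 20 genes were on the array and 5 tested. Fgf17, a growth factor made at the isthmus where the cut was placed, was at 462 and 485 in forebrain and negative on both hindbrain arrays (3.37 ± 0.76, adjusted p = 0.145). Forebrain replicate 2 was above its noise level and replicate 1 was not. By their brightest probe sets, the other 4 genes had differences between -0.91 (Pax8, a paired-box gene of the isthmus and hindbrain) and 0.49 (Foxa2, a floor plate factor). Pitx3 (0.21) and Nr4a2 (-0.07), both factors of midbrain dopamine neurons, lay between them. A dimmer Nr4a2 probe set gave -0.95 (adjusted p = 0.999, limma), with overlapping values and only hindbrain replicate 2 above noise among the wild-type arrays.

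A lens gene, Cryaa, and a radial glia gene, Ptprz1, were also higher in forebrain. Cryaa (U47921_s_at), a lens crystallin of the alpha family, was at 4919 and 5254 in forebrain and 1018 and 737 in hindbrain. Both forebrain arrays lay above both hindbrain arrays, which were themselves above noise. The difference was 2.55 ± 0.37 (adjusted p = 0.016), 5.87-fold, and the call held in 10 of 17 alternative settings. Crybb3, a beta crystallin, was at 1779 and 2240.3 in forebrain and 89.6 and 292 in hindbrain, with no overlap, but did not pass (3.63 ± 0.71, adjusted p = 0.0807). The other 9 tested genes of the lens list, among them Mip (0.35), Crybb2 (0.53) and Cryab (0.05), had differences between -1.43 and 0.53, and the median of all 11 was 0.11. Ptprz1 (U09357_at), a receptor phosphatase of radial glia, was at 2255 and 2609 in forebrain and 353 and 533 in hindbrain. Its forebrain arrays were above the hindbrain arrays, and the difference was 2.48 ± 0.35 (adjusted p = 0.0152), 5.59-fold. Hindbrain replicate 1 was below its noise level of 619.8, so the size of this fold is uncertain. A second Ptprz1 probe set was dimmer, at 960 and 419.9 and 211 and 162, and did not pass (1.78, adjusted p = 0.569). Cryaa (0.065 to 0.113) lost the call when any 1 of the 4 wild-type arrays was left out, with adjusted p in parentheses. Ptprz1 (0.0636 to 0.102) lost the call when either wild-type forebrain array or wild-type hindbrain replicate 1 was left out.

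**Figure D2:**
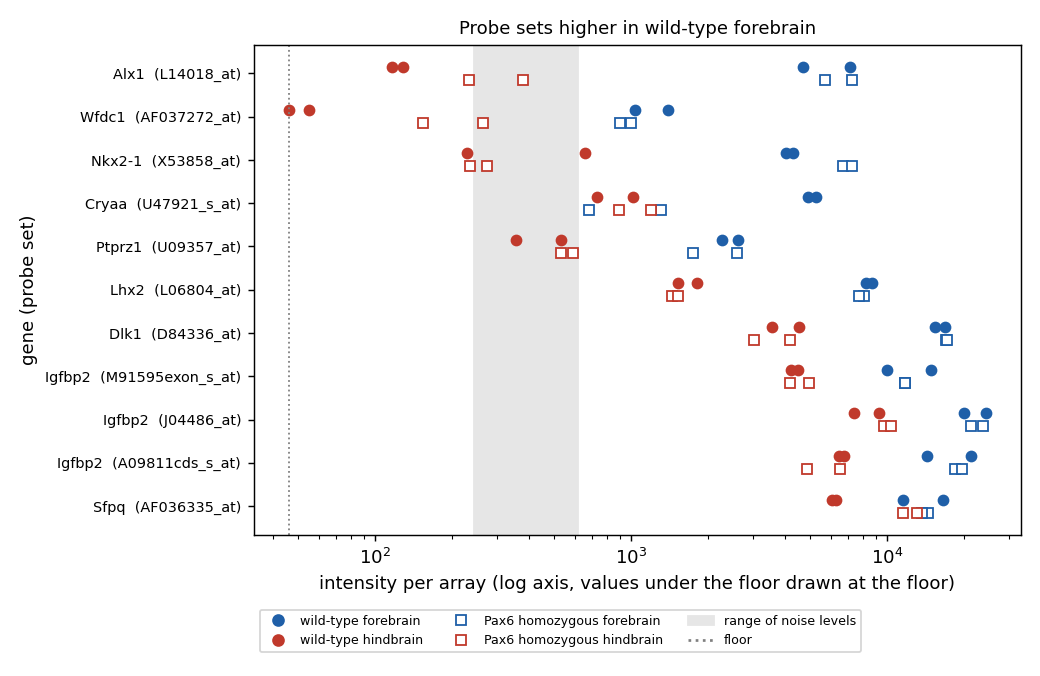
Intensity on each array (log axis) of the probe sets with 1 gene symbol called higher in wild-type forebrain. Filled circles are wild-type arrays and open squares Pax6 homozygous arrays, blue for forebrain and red for hindbrain, with the range of the arrays' noise levels in grey and the floor dotted. The filled blue circles lie to the right of the filled red ones in every row, while in the rows of Cryaa and Sfpq the open squares of the 2 regions lie close together.

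Growth regulators and secreted proteins made up most of the remaining forebrain calls. Dlk1 (D84336_at), an imprinted membrane protein of the Notch ligand family, was at 15412 and 16846 in forebrain and 3543 and 4533 in hindbrain (2.01 ± 0.21, adjusted p = 0.00263, 4.02-fold). Igfbp2, a binding protein that modulates insulin-like growth factors, was read by 3 probe sets and all 3 passed, though none did with the 4 wild-type arrays alone. Its M91595exon_s_at probe set was at 9950.2 and 14864 in forebrain and 4206 and 4461 in hindbrain (1.49 ± 0.21, adjusted p = 0.0157, 2.81-fold). The others gave 1.41 (J04486_at, adjusted p = 0.00621) and 1.39 (A09811cds_s_at, adjusted p = 0.0267), so the 3 readings of Igfbp2 lay within 0.10 of each other. Wfdc1 (AF037272_at), a secreted protein with a WAP domain, was at 1036 and 1392 in forebrain and at -152 and 55.1 in hindbrain, where neither array was above noise. The difference was 4.58 ± 0.55 (adjusted p = 0.00601), at least 2.93-fold. Sfpq (AF036335_at), a splicing factor of the nucleus, was at 16568 and 11485 in forebrain and 6302 and 6106 in hindbrain. This was the smallest difference among the forebrain calls (1.15 ± 0.19, adjusted p = 0.0332, 2.22-fold), it held in 5 of 17 alternative settings, and the other Sfpq probe set overlapped between regions (0.62, adjusted p = 0.999). Wfdc1 (0.063) lost the call when wild-type forebrain replicate 2 was left out, with adjusted p in parentheses. Igfbp2 by M91595exon_s_at (0.0632 to 0.125) lost the call when wild-type forebrain replicate 2 or either wild-type hindbrain array was left out. Igfbp2 by J04486_at (0.065) lost the call when wild-type hindbrain replicate 1 was left out. Igfbp2 by A09811cds_s_at (0.0643 to 0.167) lost the call when any 1 of the 8 arrays other than wild-type forebrain replicate 1 and both Pax6 homozygous hindbrain arrays was left out. Sfpq (0.0731 to 0.188) lost the call when any 1 of the 8 arrays other than wild-type forebrain replicate 2 was left out.

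Of the growth and imprinted gene list, 19 genes were tested, Dlk1 and Igfbp2 passed as higher in forebrain and none passed as higher in hindbrain by its brightest probe set. Among all tested probe sets 0.204% and 0.578% passed in these directions. Igf2, the fetal growth factor, was at 14508 and 16709 in forebrain and 29517 and 27870.4 in hindbrain by its brightest probe set, with no overlap (-0.88 ± 0.17, adjusted p = 0.0699). Its 3 dimmer probe sets gave differences between -0.52 and 0.10. Igfbp3, another binding protein of these growth factors, was higher in hindbrain by 1 of its 2 probe sets: rc_AI009405_s_at was at 249.5 and 333 in forebrain, below noise, and 1865 and 1403 in hindbrain. That difference was -2.49 ± 0.37 (adjusted p = 0.0186, at least 3.67-fold), and the brighter probe set gave -1.21 (adjusted p = 0.168). Nnat, an imprinted gene of neural tissue, was at 65579 and 73115 and 49776 and 52219, with no overlap and a difference of 0.44 ± 0.11 (adjusted p = 0.206). Aldh1a1, the retinaldehyde dehydrogenase of the dorsal retina, was at 4504 and 5075 in forebrain and 2046 and 1672 in hindbrain, also without overlap (1.37 ± 0.31, adjusted p = 0.138). The remaining genes named for small p without passing were a class I histocompatibility gene, RT1-CE16 (1.09, adjusted p = 0.113), and the glutathione transferase Gsta4 (0.90, adjusted p = 0.221). Igfbp3 (0.0691 to 0.165) lost the call when any 1 of the 8 arrays other than wild-type forebrain replicate 2 and both Pax6 homozygous forebrain arrays was left out, with adjusted p in parentheses.

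The largest difference of the comparison was in a muscle gene. Actc1 (rc_AA866452_s_at), the cardiac alpha actin that embryonic skeletal muscle also makes, was at -184 and 46.6 on the forebrain arrays and 16621 and 14605 on the hindbrain arrays. Forebrain was indistinguishable from noise, while hindbrain was among the bright genes of the array. The difference was -8.40 ± 0.33 (adjusted p = 1.31e-05), at least 35.4-fold in the hindbrain's favour. Tnnc2 (rc_AI639532_at), troponin C of fast skeletal muscle, was negative on both forebrain arrays and at 1454 and 1799 in hindbrain. The difference was -5.14 ± 0.60 (adjusted p = 0.00525), at least 3.67-fold. Myh3 (M12098_s_at), the embryonic myosin heavy chain, was at 132 and 16.6 in forebrain and 2059.8 and 1526 in hindbrain (-4.51 ± 0.66, adjusted p = 0.016, at least 4.03-fold). Its 3 other probe sets gave differences between -2.84 and -2.34 and did not pass. For these 3 genes no forebrain array reached its noise level by the probe sets called.

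The promoters of the called muscle genes are shown because these genes moved together and the actins and troponins of striated muscle are textbook targets of factors that bind E boxes, CArG boxes and MEF2 sites. The sequences run 5′ to 3′ from 250 bases before to 50 after the annotated start, are from RefSeq on build GRCr8, and have matches to the motifs searched in capitals. They are Actc1 (chr3:121271778-121272077, minus strand), Tnnc2 (chr3:173935290-173935589, minus strand), Myh3 (chr10:52268935-52269234, plus strand) and Acta2 (chr1:241172454-241172753, minus strand), the smooth muscle alpha actin whose values follow.
Actc1: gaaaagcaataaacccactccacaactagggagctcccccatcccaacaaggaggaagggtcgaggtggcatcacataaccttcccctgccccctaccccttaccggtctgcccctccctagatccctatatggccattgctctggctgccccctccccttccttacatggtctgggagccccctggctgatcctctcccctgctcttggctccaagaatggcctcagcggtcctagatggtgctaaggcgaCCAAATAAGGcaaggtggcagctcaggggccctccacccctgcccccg
Tnnc2: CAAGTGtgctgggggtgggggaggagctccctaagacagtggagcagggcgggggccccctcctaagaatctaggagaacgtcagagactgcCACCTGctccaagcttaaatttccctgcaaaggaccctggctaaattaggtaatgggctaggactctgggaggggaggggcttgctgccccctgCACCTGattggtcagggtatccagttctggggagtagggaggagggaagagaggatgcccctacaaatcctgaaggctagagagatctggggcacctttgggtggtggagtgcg
Myh3: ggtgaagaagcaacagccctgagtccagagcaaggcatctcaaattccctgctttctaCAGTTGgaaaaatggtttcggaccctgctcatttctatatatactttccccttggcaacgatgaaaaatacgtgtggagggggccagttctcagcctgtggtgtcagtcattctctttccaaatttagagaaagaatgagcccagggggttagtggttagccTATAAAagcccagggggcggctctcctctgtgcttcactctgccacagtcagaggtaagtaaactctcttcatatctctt
Acta2: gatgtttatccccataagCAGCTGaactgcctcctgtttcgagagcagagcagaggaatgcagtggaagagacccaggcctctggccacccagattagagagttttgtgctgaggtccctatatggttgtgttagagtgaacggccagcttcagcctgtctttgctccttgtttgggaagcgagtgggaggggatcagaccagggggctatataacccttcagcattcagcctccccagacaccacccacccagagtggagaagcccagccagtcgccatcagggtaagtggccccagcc
The E box CANNTG, the CArG box, the letters TATAAA and the MEF2 site were searched on both strands, and no matches overlapped. Actc1 held a CArG box, CCAAATAAGG, 2 bases after the start. Tnnc2 held 3 E boxes, 250, 158 and 64 bases before the start. Myh3 held an E box 192 bases before and TATAAA 30 bases before the start, and Acta2 an E box 232 bases before. For the CArG box only exact matches to a strict pattern were counted. The printed Actc1 and Acta2 sequences also hold near matches to it, which are not in capitals. The search thus does not show that the Acta2 promoter lacks a CArG box. Over 33469 promoter windows of 300 bases, 72.1% held the E box, 14.2% TATAAA, 1.64% a CArG box and 0.565% a MEF2 site. E boxes were thus common in promoters of every kind, and exact matches to the CArG pattern were not. A match is a description of the letters and not a sign of binding.

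Acta2 was read by 3 probe sets that did not agree in size. The first (X06801cds_i_at) was at 76.2 and 200.2 in forebrain, below noise, and 1844 and 3493 in hindbrain (-4.36 ± 0.73, adjusted p = 0.0332, at least 5.76-fold). The second (rc_AA900769_s_at) was at 765 and 815 and 4354 and 5307 (-2.61 ± 0.28, adjusted p = 0.00297, 6.09-fold), and kept its call in 17 of 17 alternative settings. The third and brightest (X06801cds_f_at) was at 8431 and 3010.3 in forebrain and 11509.7 and 4911 in hindbrain, which overlapped (-0.58, adjusted p = 0.999). Genes of the actin family share much of their coding sequence, so a probe set of one can also read another. S100a1, a calcium-binding protein abundant in striated muscle, was read by 4 probe sets and all 4 passed as higher in hindbrain. The one with the largest difference (rc_AI228548_g_at) was negative on both forebrain arrays and at 2393 and 3371 in hindbrain (-5.95 ± 0.52, adjusted p = 0.00091, at least 6.45-fold). The brightest of them in forebrain (S68809_s_at) was at 589.5 and 805 and 2869 and 2668, and gave the smallest difference, -2.01 (adjusted p = 0.0186). Tnnc2 (0.0569 to 0.067) lost the call when either wild-type hindbrain array was left out, with adjusted p in parentheses. Myh3 (0.078 to 0.159) lost the call when either wild-type hindbrain array or either Pax6 homozygous hindbrain array was left out. Acta2 by X06801cds_i_at (0.051 to 0.222) lost the call when any 1 of the 8 arrays other than both Pax6 homozygous forebrain arrays was left out. S100a1 by S68809_s_at (0.0746 to 0.151) lost the call when any 1 of the 8 arrays other than wild-type forebrain replicate 2 and both Pax6 homozygous forebrain arrays was left out. S100a1 by rc_AI228548_at (0.065 to 0.194) lost the call when any 1 of the 8 arrays other than both Pax6 homozygous forebrain arrays and Pax6 homozygous hindbrain replicate 1 was left out. S100a1 by U26356mRNA_s_at (0.0691) lost the call when wild-type hindbrain replicate 2 was left out.

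Of 34 skeletal muscle genes listed, 28 were on the array and 22 tested. Actc1 and Tnnc2 passed as higher in hindbrain by their brightest probe sets (0.578% of all tested probe sets did). Of the 22, 18 had negative differences (49.8% of all tested probe sets did), and the median was -1.35. In 10 of the 22 both hindbrain arrays lay above both forebrain arrays, against 13.9% of all tested probe sets. Actc1 and Tnnc2 were under 255, the level needed for testing, on every forebrain array of both genotypes. They were tested only through their hindbrain arrays, so the filter itself tilts these counts to hindbrain. The summed intensity of the 22 genes was 24520.4 and 22959 in forebrain and 57277 and 51707 in hindbrain, and without Actc1 it was 24704 and 22913 against 40656 and 37102. Acta1, the skeletal alpha actin, was at 367 and 41.0 in forebrain and 2296 and 2240.5 in hindbrain (-4.13 ± 0.87, adjusted p = 0.107). Myod1, the factor that commits cells to muscle, was negative in forebrain and at 204 and 528 in hindbrain (-2.84, adjusted p = 0.555), with hindbrain replicate 1 below its noise level. The myosin light chains Myl1 (-1.83) and Myl4 (-2.78) and troponin Tnni1 (-1.83) were also brighter on both hindbrain arrays without passing. Tpm1, a tropomyosin that many cells make, was bright and level, at 11489 and 13484 and 12766 and 12658 (-0.03). The list's median depended on the floor: it was -0.07 with the floor raised to the pooled median and -0.75 with a generalised logarithm. In the heart and smooth muscle list no gene passed by its brightest probe set of 14 tested, 7 differences were positive and 7 negative, and the median was 0.03. The part of muscle tissue in the other hindbrain differences was not tested.

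Hoxa5 was the 1 gene of the Hox and hindbrain list that passed. Hoxa5 (L03556_at), which gives positional identity to the neck and upper trunk region and the caudal hindbrain, was at -95.5 and 37.0 in forebrain and 2040.5 and 2723 in hindbrain. Forebrain was below noise on both arrays and hindbrain above it on both. The difference was -5.68 ± 0.52 (adjusted p = 0.00114), at least 5.35-fold, and it kept its call in 17 of 17 alternative settings. Of 41 genes listed, 11 were on the array and 8 were tested. In 6 of the 8 both hindbrain arrays lay above both forebrain arrays, against 13.9% of all tested probe sets. Hoxa5, Hoxd3, Phox2a, Egr2 and Ptf1a were under 255, the level needed for testing, on every forebrain array of both genotypes. They were tested only through their hindbrain arrays, so the filter itself tilts this count and the list's median to hindbrain. Hoxd3 was at 71.6 and 113 in forebrain and 844 and 702 in hindbrain (-3.10 ± 0.69, adjusted p = 0.138). Phox2a, a homeobox gene of cranial motor and autonomic neurons, was at -121 and 247 and 660.5 and 843 (-2.81 ± 0.78, adjusted p = 0.312). Nkx6-1, a homeobox gene of ventral progenitors, was above noise on all 4 arrays, at 885 and 935 in forebrain and 1498 and 1553 in hindbrain (-0.75, adjusted p = 0.939). Egr2, a zinc finger factor of hindbrain segments, was below noise on every wild-type array but hindbrain replicate 2 (-0.88), as was Ptf1a, a factor of inhibitory neuron progenitors (-1.82). Hoxc4 (1.34) and Gata3 (-0.96) overlapped between regions, and Hoxc4 was negative on both hindbrain arrays. The median of the 8 was -1.39, and -0.29 once the floor was raised to the pooled median.

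Genes of differentiated neurons were higher in hindbrain, led by neurofilaments, the intermediate filaments of axons. Nefl, the light chain, was called by both its probe sets. AF031880_at was at 2264 and 1890.3 in forebrain and 13592 and 18581 in hindbrain (-2.94 ± 0.23, adjusted p = 0.000687, 7.68-fold), with all 4 arrays above noise. M25638_s_at was negative on both forebrain arrays and at 4452 and 6312 in hindbrain (-6.85 ± 0.74, adjusted p = 0.00297, at least 12-fold). Nefm (Z12152_at), the medium chain, was at 2891 and 3042 in forebrain and 20918 and 22237 in hindbrain (-2.86 ± 0.26, adjusted p = 0.00104, 7.27-fold). Ina, alpha-internexin, an early neuronal filament, passed by both probe sets, with 3958 and 3571 against 17269 and 15727 (-2.13 ± 0.17, adjusted p = 0.000687) and 6269.7 and 5536 against 17907 and 18647 (-1.63 ± 0.20, adjusted p = 0.00677). Prph (AF031878_at), peripherin, the filament of peripheral and motor neurons, was below noise in forebrain at 416 and 188 and at 1943 and 1802 in hindbrain. Its difference was -2.74 ± 0.48 (adjusted p = 0.042, at least 4.25-fold). The hindbrain arrays of each filament gene lay above the forebrain arrays, and forebrain still held Nefl, Nefm and Ina at readable levels.

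Other neuronal genes were higher in hindbrain as well. Rtn1, a reticulon of neuronal endoplasmic reticulum, was at 6517 and 6048 in forebrain and 16988 and 17142 in hindbrain (-1.44 ± 0.19, adjusted p = 0.00888), and its other probe set passed too (-1.15, adjusted p = 0.0276). Dpysl4, a protein of the collapsin response mediator family that acts in growing axons, was at 2922 and 2543 and 9163 and 7819 (-1.63 ± 0.21, adjusted p = 0.00924). Ngfr (X05137_at), the low-affinity neurotrophin receptor of neural crest and of sensory and motor neurons, was at 2287 and 2442 in forebrain and 7502 and 5762 in hindbrain (-1.48 ± 0.21, adjusted p = 0.0149). A second probe set of Ngfr overlapped between regions (0.07) and spread widely within them. Sst (M25890_at), somatostatin, a peptide made by several classes of neuron, was at 2133 and 4041 in forebrain and 16296 and 21661 in hindbrain (-2.68 ± 0.32, adjusted p = 0.00525, 6.4-fold). Its second probe set just missed (-5.44, adjusted p = 0.0512). Ecel1 (Y16188_at), a neuronal metalloprotease known from motor neurons, was at 85.9 and 88.3 in forebrain, below noise, and 1342 and 1486 in hindbrain (-4.02 ± 0.50, adjusted p = 0.00677, at least 3.21-fold). Each gene here had both hindbrain arrays above both forebrain arrays by the probe set called. Ina by M73049_at (0.051 to 0.067), Rtn1 by X52817cds_s_at (0.056 to 0.0853) and Dpysl4 (0.0506 to 0.0998) lost the call when wild-type forebrain replicate 2 or either wild-type hindbrain array was left out, with adjusted p in parentheses. Prph (0.0687 to 0.269) lost the call when any 1 of the 8 arrays other than wild-type forebrain replicate 1 was left out. Rtn1 by U17604_at (0.0826 to 0.206) lost the call when any 1 of the 8 arrays other than both Pax6 homozygous forebrain arrays was left out. Ngfr (0.0596 to 0.144) lost the call when either wild-type forebrain array or wild-type hindbrain replicate 1 was left out. Sst (0.0506) lost the call when wild-type hindbrain replicate 2 was left out. Ecel1 (0.0655 to 0.0691) lost the call when either wild-type hindbrain array was left out.

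In the neuronal differentiation list, 5 of 26 tested genes passed as higher in hindbrain (Nefl, Nefm, Ina, Rtn1 and Prph) and none as higher in forebrain, against 0.578% and 0.204% of all tested probe sets. In 17 of the 26 the hindbrain arrays lay above the forebrain arrays, against 13.9% of all tested probe sets. The median was -0.79, or -0.65 with a generalised logarithm and -0.40 with the raised floor, and the summed intensity was 113719 and 115155 in forebrain and 186515 and 199584 in hindbrain. Ncam1, the neural cell adhesion molecule, was at 1402 and 1305 in forebrain and 5123 and 5134 in hindbrain and just missed (-1.92 ± 0.35, adjusted p = 0.0567). Gap43, a protein of growth cones, was at 5095 and 4975 and 8376 and 11392 (-0.96 ± 0.19, adjusted p = 0.0905). In the sensory and autonomic ganglia list Ngfr and Prph passed, 11 of 12 tested genes had negative differences and the median was -1.01. In the motor and cholinergic list Ecel1 and Prph passed, 8 of 12 were negative and the median was -0.97. Of all tested probe sets 49.8% were negative. In 5 of the 12 ganglia genes and 7 of the 12 motor genes both hindbrain arrays lay above both forebrain arrays, against 13.9% of all tested probe sets. In 1 ganglia gene and 0 motor genes both forebrain arrays lay above, against 12.8%. Phox2a of the motor list was tested only through its hindbrain arrays. Peripherin stands in 3 of these lists, so their counts are not separate evidence. The exception in the ganglia list was Tac1, the substance P precursor, at 884 and 1941 in forebrain and 344 and 542 in hindbrain (1.60 ± 0.48, adjusted p = 0.401). Among 22 neuropeptide genes, Sst alone passed, 11 differences were positive and 11 negative, and the median was 0.00.

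**Figure D3:**
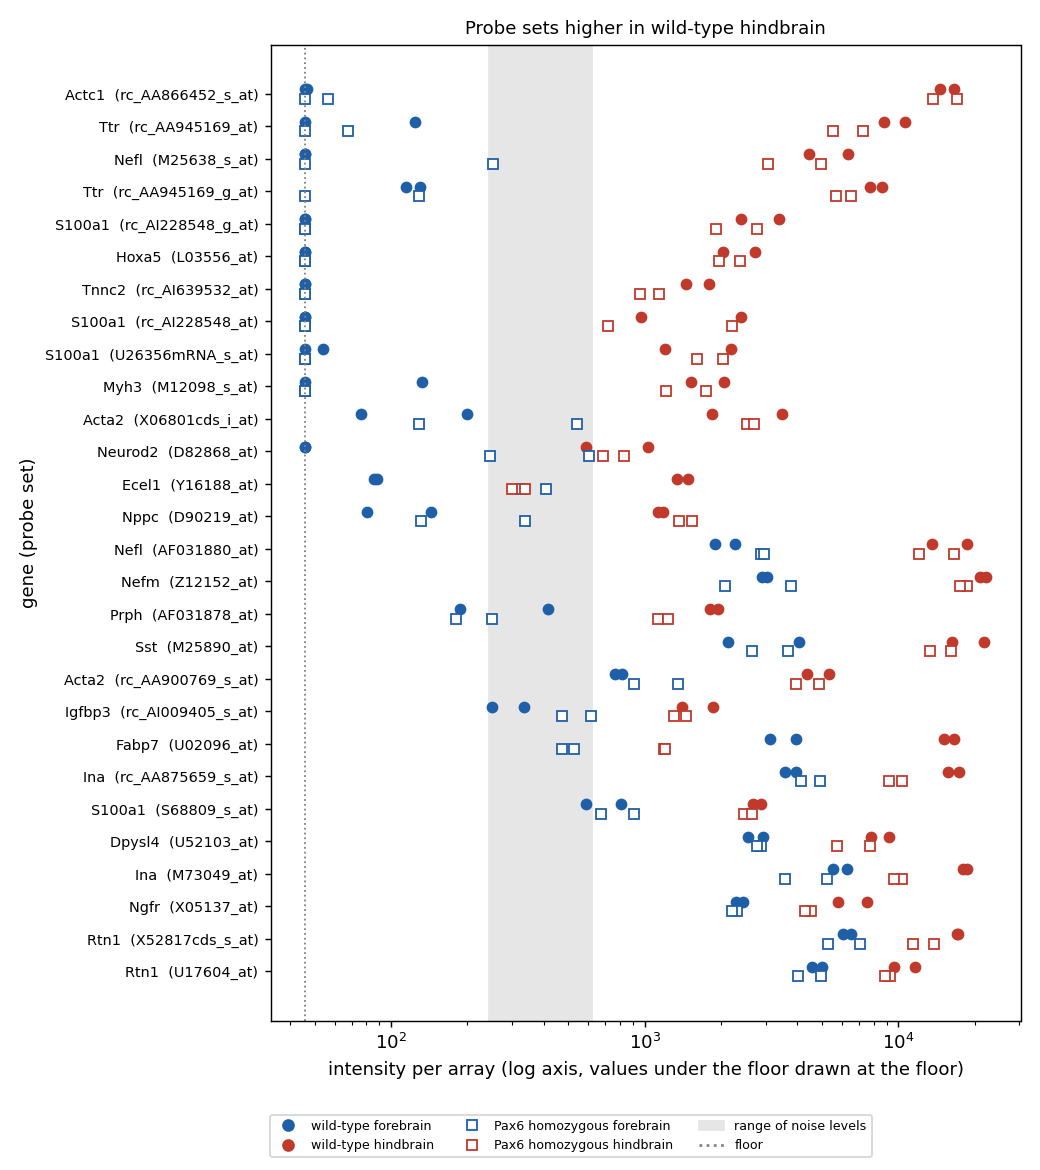
Intensity on each array (log axis) of the probe sets with 1 gene symbol called higher in wild-type hindbrain, ordered by the difference. Filled circles are wild-type arrays and open squares Pax6 homozygous arrays, blue for forebrain and red for hindbrain, with the range of noise levels in grey and the floor dotted. In the upper rows, from Actc1 to Nppc, the filled blue circles lie at or below the grey band. From Nefl (AF031880_at) down most lie above it, with Prph, Igfbp3 and 1 array of S100a1 (S68809_s_at) as exceptions.

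Progenitor and radial glia genes held 1 call in each direction. Of 22 tested, Fabp7 passed as higher in hindbrain and Ptprz1 as higher in forebrain, against 0.578% and 0.204% of all tested probe sets. Fabp7 (U02096_at), a fatty acid binding protein of radial glia, was at 3117 and 3934 in forebrain and 16568 and 15111 in hindbrain (-2.18 ± 0.23, adjusted p = 0.00297, 4.52-fold). Both hindbrain arrays lay far above both forebrain arrays. Hes1, a Notch target that keeps progenitors dividing, was at 6412 and 7922 in forebrain and 4416 and 4688 in hindbrain (0.65 ± 0.18, adjusted p = 0.31), and Id1, an inhibitor of differentiation factors, lay the other way (-0.77, adjusted p = 0.444). The median of the 22 was -0.29, with 18 negative (49.8% of all tested probe sets were). In 11 of the 22 both hindbrain arrays lay above both forebrain arrays and in 3 both forebrain arrays lay above, against 13.9% and 12.8% of all tested probe sets. None of 28 tested cell cycle genes passed. Pold1, a subunit of DNA polymerase delta, had the smallest p among them, at 4164 and 4538 in forebrain and 2716 and 2149 in hindbrain (0.85, adjusted p = 0.249). Of the 28 cell cycle genes, 19 were positive (50.2% of all tested probe sets were) and the median was 0.15. In 11 of the 28 both forebrain arrays lay above both hindbrain arrays and in 5 both hindbrain arrays lay above, against the same 12.8% and 13.9%. Fabp7 (0.0532) lost the call when wild-type hindbrain replicate 1 was left out, with adjusted p in parentheses.

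Ttr was the 1 gene of the liver list that passed, as higher in hindbrain. Ttr, transthyretin, the thyroid hormone carrier made by choroid plexus and liver, was at -63.4 and 124 in forebrain and 8751 and 10649 in hindbrain (rc_AA945169_at). The forebrain arrays were below noise and the hindbrain arrays bright. The difference was -7.00 ± 0.52 (adjusted p = 0.000617), at least 21.9-fold, the second probe set passed too (-6.07, adjusted p = 0.000687), and both kept their calls in 17 of 17 alternative settings. None of the other 10 tested liver genes passed. Their summed intensity was 5687 and 4521 in forebrain and 7252 and 4045 in hindbrain, which overlapped. Alb, albumin, was at 459 and 278 and 425 and 293, and Afp, alpha-fetoprotein, was below noise on all 4 wild-type arrays, at -8.50 and 68.0 and 445 and 32.7. Nppc (D90219_at), the C-type natriuretic peptide, was at 80.6 and 144 in forebrain, below noise, and 1177 and 1127 in hindbrain (-3.42 ± 0.58, adjusted p = 0.0353, at least 2.62-fold). A brighter Nppc probe set gave -0.35 (adjusted p = 0.999). Nppc (0.06 to 0.227) lost the call when any 1 of the 8 arrays other than both Pax6 homozygous forebrain arrays was left out, with adjusted p in parentheses.

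Blood and connective tissue genes held no calls. All 10 tested blood genes had positive differences (50.2% of all tested probe sets did), with a median of 0.29. In 5 of them both forebrain arrays lay above both hindbrain arrays, against 12.8% of all tested probe sets. The adult-type globin Hbb was at 17427 and 21566 in forebrain and 14851 and 14745 in hindbrain (0.39, adjusted p = 0.801), and the embryonic globin Hbe1 overlapped (0.05). The summed intensity of the blood genes was 184659 and 199376 in forebrain and 176946 and 163333 in hindbrain, and probe sets of globin genes can read each other's transcripts. The part of blood in the other differences was not tested. No gene passed among 19 fibroblast and matrix genes (median -0.16), 11 cartilage and bone genes (median 0.02), 7 endothelial genes (median -0.32) or 7 macrophage and microglia genes (median 0.10). In 7 of the 19 fibroblast and matrix genes both hindbrain arrays lay above both forebrain arrays, against 13.9% of all tested probe sets. In 3 of the 19 both forebrain arrays lay above, against 12.8%. Col2a1, the collagen of cartilage, was at 12669 and 11811 in forebrain and 17844 and 20368 in hindbrain (-0.64 ± 0.19, adjusted p = 0.415). Among 10 surface and gut epithelium genes, Krt19, a keratin of simple epithelia, was at 223 and 123 and 1003 and 767 (-2.40 ± 0.54, adjusted p = 0.145). None of 13 housekeeping genes passed, and their differences lay between -0.32 and 0.26.

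The lists of secreted signals and receptors, the retinoic acid pathway, adhesion and guidance, monoaminergic neurons, and GABA and glutamate held no calls either. Called genes that also signal, such as Ngfr, Sst and Dlk1, were counted in other lists. Of 33 tested secreted signals and receptors, Tgfb2 was at 258 and 469.7 in forebrain and 1281 and 1028 in hindbrain (-1.72 ± 0.51, adjusted p = 0.401). Bmp7, a bone morphogenetic protein of the eye and dorsal midline, lay the other way at 1091 and 1217 and 154 and 569 (1.96 ± 0.60, adjusted p = 0.422). The median of the 33 was 0.11, with 18 positive and 15 negative. Of 12 genes of the retinoic acid pathway, Aldh1a2, the retinaldehyde dehydrogenase of trunk mesoderm, was at 62.8 and -152 in forebrain and 378 and 387 in hindbrain (-2.83 ± 0.88, adjusted p = 0.435). For Aldh1a2 only hindbrain replicate 2 was above its noise level among the wild-type arrays. Crabp1, the retinoic acid binding protein, was bright in both regions, at 41569.5 and 52019.7 and 51158 and 50985 (-0.14). The median of the 12 was -0.14. Among 22 adhesion and axon guidance genes 17 were negative (49.8% of all tested probe sets were), with a median of -0.27. Slit1, a repellent of growing axons, was at 957 and 598 in forebrain and 1482 and 1268 in hindbrain (-0.86, adjusted p = 0.744). Ddc, the last enzyme of dopamine and serotonin synthesis, was brighter on both hindbrain arrays (-776 and 135 against 362 and 1543, adjusted p = 0.249) among 10 monoaminergic genes without a call. For Ddc too only hindbrain replicate 2 was above its noise level. None of 20 GABA and glutamate genes passed, with a median of -0.03.

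**Figure D4:**
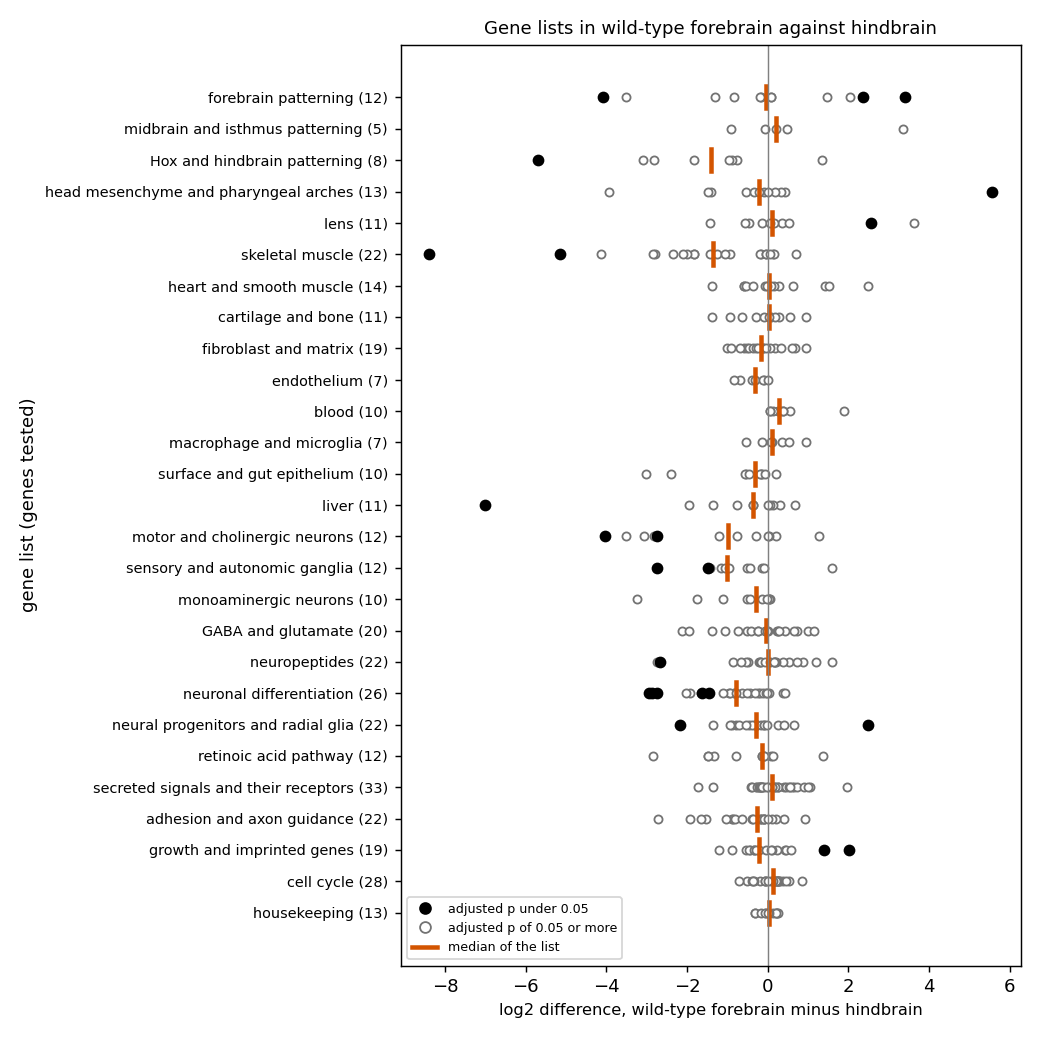
Log2 difference between wild-type forebrain and hindbrain (horizontal axis) of each tested gene, by gene list (vertical axis, with the number of genes tested), 1 probe set per gene. Filled points passed at an adjusted p of 0.05, open points did not, and the orange bar is the median of the list. The medians of skeletal muscle (-1.35), Hox and hindbrain patterning (-1.39), ganglia (-1.01), motor neurons (-0.97) and neuronal differentiation (-0.79) lie left of 0, and that of housekeeping genes (0.04) near it.

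Of the 46 called probe sets, 7 name no single gene: 3 are assigned to several symbols and 4 to none. One with no symbol, M87634_at, was higher in forebrain, at 5114 and 4062 against 159.9 and 275 (4.44 ± 0.35, adjusted p = 0.000687), and kept its call in 17 of 17 alternative settings. The other 6 were higher in hindbrain, with differences from -4.84 to -1.55. Over all 46, 20 had no array above noise on the dim side, so their size is only a lower bound.

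The Pax6 homozygous arrays measured the regional difference in embryos of another genotype, with no array in common. The spread and the filter in both tests came from all 8 arrays, so the calls of the genotypes are not independent. In them 27 of 5881 probe sets (0.459%) passed, and 26 of these were among the 46 of the wild-type arrays. The difference had the same sign in 44 of the 46, and the arrays of the regions did not overlap, in the same direction, in 44 (14.9% of all tested probe sets did so as higher in forebrain and 20.7% as higher in hindbrain). The Pax6 homozygous difference was smaller, or of opposite sign, for 8 of the 12 forebrain calls and 29 of the 34 hindbrain calls. Its median in the wild-type direction was 2.08 against 2.42 for the forebrain calls and 2.58 against 3.29 for the hindbrain calls. The 46 were picked by their wild-type values, and the cause of the smaller size was not tested. Actc1 was at -8.23 in the Pax6 homozygous arrays, Ttr at -6.83, Hoxa5 at -5.55, Alx1 at 4.44 and Nkx2-1 at 4.79. The 2 of opposite sign were Cryaa (-0.13) and Ecel1 (0.19). Cryaa was at 1303 and 683 in Pax6 homozygous forebrain and 1189 and 894 in Pax6 homozygous hindbrain, near the wild-type hindbrain level. Ecel1 was at 406 and 324 and 339 and 299, so its hindbrain arrays there were both far below the wild-type hindbrain arrays. Fabp7 kept its direction at a lower level in both regions, at 528 and 472 in Pax6 homozygous forebrain and 1190.1 and 1205 in Pax6 homozygous hindbrain (-1.26 ± 0.23, adjusted p = 0.0637).

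The test of whether the regional difference itself differed between genotypes called 0 of 5881 probe sets (0%), with limma's smallest adjusted p at 0.9995 and 112 probe sets at an unadjusted p under 0.05. By unadjusted p the first was Ecel1, with a wild-type minus Pax6 homozygous difference of -4.21 ± 0.71, followed by Marcks (1.69 ± 0.32), a substrate of protein kinase C, and Cryaa (2.68 ± 0.52). Crybb3 differed by 4.76 ± 1.00 and the serine synthesis enzyme Psat1 by -1.59 ± 0.37. Ina differed by -1.02 ± 0.25 by rc_AA875659_s_at. Actc1 differed by -0.17 ± 0.47 and Alx1 by 1.13 ± 0.53. The count depended on the setting: 8 probe sets passed with the floor at the pooled median, 13 without the filter on dim probe sets and 4 without an intensity trend. Ecel1 was among them with the raised floor (adjusted p = 0.00944) and without the trend (0.0186). Ecel1 was below noise on both wild-type forebrain arrays and on 1 of the 2 Pax6 homozygous arrays of each region.

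**Figure D5:**
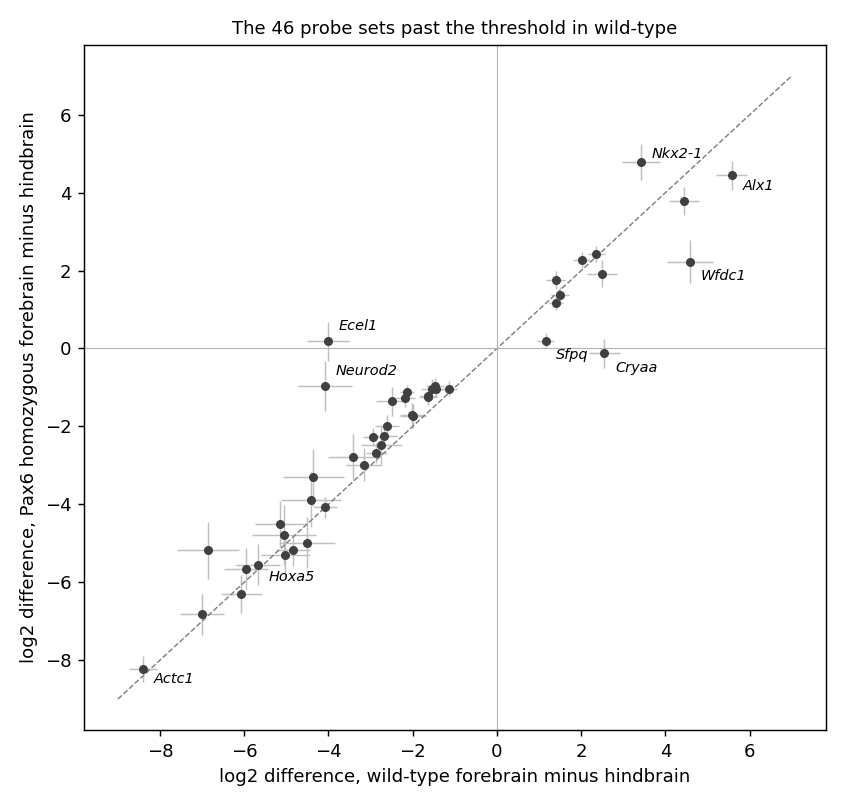
Regional difference in Pax6 homozygous arrays (vertical axis) against that in wild-type arrays (horizontal axis), both log2 forebrain minus hindbrain, for the 46 probe sets called in wild-type. Bars are limma's standard errors and the dashed line marks equal differences. Most points lie on the side of the line where the Pax6 homozygous difference is the smaller, and Cryaa and Ecel1 lie on the other side of 0.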

How the data were processed

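RNA of the 8 arrays was read on Affymetrix rat U34A arrays. The authors deposited 1 linear intensity per probe set and array, with negative values and no detection calls, and the software and scaling behind them are stated in none of the sources used here. The arrays had a common mean after 2% of values at each end were left out, so the authors' scaling was kept. Gene names came from the platform annotation: of 8799 probe sets, 7018 had 1 symbol, 308 several (no gene was named from these) and 1473 none.

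Intensities were floored at the pooled 25th percentile (45.9) and taken to log2. Tests covered the 5881 probe sets (3553 genes) with 2 or more arrays over the pooled 40th percentile (255). limma 3.58.1 in R 4.3.3 (lmFit, eBayes with an intensity trend) fitted 4 group means over all 8 arrays, with 4 residual and 4.63 prior degrees of freedom. The contrast took the wild-type groups, and the Pax6 homozygous arrays added only to the spread. P-values are two-sided with Benjamini-Hochberg adjustment over all tested probe sets. Above noise means above the size of the array's 5th percentile. A fold is 2 to the power of the difference. Where no dim array was above noise, it is given as at least N, from bright arrays at no less than their noise level against dim arrays at the higher of noise and own value.

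Lists are described by 1 probe set per gene, the brightest tested, with no set test. Genes were named by a rule: the 15 in each direction with the largest called difference and both bright arrays above noise, filled with non-overlapping genes of smallest p, list members with the smallest p, all tested forebrain, midbrain and Hox genes, and for the interaction those with smallest p. Further genes were named after their values were seen. The comparison, members, 29 lists and rule were chosen with earlier results of these data known. The pipeline was tested on simulated data. Alternatives changed the floor, filter, trend, logarithm and normalization, blocked on replicate number, used the wild-type arrays alone and left out each array.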

Additional observations from a re-analysis of the deposited data

How the results depend on the processing

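Over 17 alternative settings, 13 of the 46 called probe sets passed in every one, 33 missed the threshold in at least 1 and 0 changed sign. The 13 are Alx1, Lhx2, Actc1, both Ttr probe sets, Nefl (AF031880_at), S100a1 (rc_AI228548_g_at), Hoxa5, Acta2 (rc_AA900769_s_at), Ina (rc_AA875659_s_at) and 3 without a single symbol. The number called was 41 with the floor at the pooled median, 53 with a generalised logarithm, 33 without the filter on dim probe sets, 48 with a stricter one, 37 without an intensity trend and 45 with quantile normalization. With the 4 wild-type arrays alone it was 21 (5 higher in forebrain, 16 in hindbrain). When 1 array was left out, it ranged from 23 to 49, those higher in forebrain from 7 to 18 and those higher in hindbrain from 14 to 40. The interaction called 8 probe sets with the raised floor, 13 without the filter, 4 without the trend and 0 to 1 when an array was left out. The Pax6 difference ranged from -0.060 (without wild-type forebrain replicate 1) to 0.85 (without wild-type forebrain replicate 2), and never passed. The cause of these changes was not tested.

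Replicate numbers are shared between groups, but no label says that a number marks a litter, batch or day. Deviations of arrays with the same number correlated with r from 0.275 to 0.465 over 6 pairs of groups. With replicate number as a block, 67 probe sets passed over all 8 arrays (14 higher in forebrain, 53 in hindbrain, all 46 among them). In the 4 wild-type arrays alone, 55 passed with the block (15 and 40, with 42 of the 46). The interaction called 0 with the block over all 8 arrays.

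Gene list medians moved with the floor where many members are dim. With the floor at the pooled median they were -0.29 (Hox), -0.07 (skeletal muscle), 0.00 (liver), -0.67 (motor neurons), -0.34 (ganglia), -0.40 (neuronal differentiation) and -0.03 (growth and imprinted genes). With a generalised logarithm they were -0.75 (skeletal muscle), -0.66 (ganglia), -0.65 (neuronal differentiation) and -0.03 (growth). With the mean of a gene's probe sets they were -0.37 (fibroblast), -0.61 (ganglia), -0.45 (retinoic acid), -0.07 (growth) and 0.01 (housekeeping). With quantile normalization they were -0.71 (neuronal differentiation) and -0.01 (housekeeping).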
